A study of Mus musculus with 2 samples.

Results

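Macrophages of the dorsal root ganglion (DRG) that carried transcripts of both Fcrls and Ccr2 are described here. A cell belonged to them when C1qa, C1qb and C1qc together made at least 0.5% of its UMIs (unique molecular identifiers, each standing for 1 captured transcript), when it had at least 3 UMIs of Fcrls and at least 2 of Ccr2, and when Ifit1, Ifit2, Ifit3, Isg15 and Rsad2 together made under 0.15%. In the deposited matrix of 2668 cells the rule found 268 double-positive macrophages among 1432 macrophages. The other macrophages were 671 Fcrls-only cells (Fcrls in range, Ccr2 under 2 UMIs), 289 Ccr2-only cells (Ccr2 in range, Fcrls under 3 UMIs) and 204 cells with neither gene in range. A further 52 cells passed the C1q level and were left out for their interferon genes.

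The cells came from naive BALB/cAnNRj mice. The methods of the study give about 40 pooled ganglia of several spinal levels for flow cytometry, and no separate number for the sequenced cells. Living CD45+ cells (CD45 marks all leukocytes) were sorted, labelled with 1 hashtag antibody per mouse and run together in a single lane of a 3′ assay. The 2668 cells were those with a hashtag of the 3 male mice, and they were also contained in a larger matrix of 4395 barcodes with 0 differing counts. That matrix held a further 1073 cells with a hashtag of the 3 female mice, in which the same rule found 102 double-positive cells among 601 macrophages. The female cells played no part in setting the rule. The methods of the study name only the hashtags of the male mice, so that taking each female hashtag as a separate mouse rests on the deposited notes alone. No group was treated, so the comparisons are between classes of cells within mice, and with a single lane a technical difference between lanes could not arise.

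The mouse of each cell was read from 6 short tags conjugated to the hashtag antibodies. They are shown because the mouse, and not the cell, is the replicate in every comparison, and because a barcode with 2 tags is a known doublet. The sequences are those in the deposited notes, 5′ to 3′, each 15 bases long.
male 1: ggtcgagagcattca
male 2: cttgccgcatgtcat
male 3: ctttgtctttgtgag
female 1: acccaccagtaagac
female 2: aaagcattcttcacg
female 3: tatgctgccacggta

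Fcrls encodes an Fc receptor-like scavenger receptor that is best known from microglia and other long-lived tissue macrophages. Ccr2 encodes the receptor for the chemokine CCL2, with which blood monocytes leave the marrow and enter tissue, and macrophages that recently derived from monocytes often still carry it. Resident macrophages around vessels and nerves commonly express scavenger receptors such as CD163 and the mannose receptor, whereas monocyte-derived macrophages tend to be rich in MHC class II.

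The cells were chosen by their counts of Fcrls, Ccr2, C1q and interferon genes, so these values are given without a test. The Fcrls gene (chr3:87250758-87263738, minus strand, GRCm38) had a median of 6 UMIs in double-positive cells, with a range of 3 to 66, against a median of 9 in Fcrls-only cells. Ccr2 (chr9:124101950-124113557, plus strand) had a median of 4 UMIs in double-positive and in Ccr2-only cells, with a range of 2 to 26 in the double-positive cells. In CPM (a gene's share of the UMIs summed over the cells of a mouse, per 1e+06 UMIs and scaled by TMM factors), Fcrls was at 709, 757 and 821 in double-positive cells of male mice 1, 2 and 3. It was at 1172, 1060 and 1095 in Fcrls-only cells and at 77.4, 112 and 88.8 in Ccr2-only cells. Ccr2 was at 421, 508 and 428 CPM in double-positive cells, at 10.1, 17.8 and 17.2 in Fcrls-only cells and at 639, 719.9 and 560.5 in Ccr2-only cells. By CPM the double-positive cells of the male mice thus held less of each gene than the single-positive class of that gene. The female ranges of Ccr2 overlapped, with 594 CPM in double-positive and 558 CPM in Ccr2-only cells of female mouse 1. At the edge of the rule, 42 double-positive cells had exactly 3 Fcrls UMIs, 63 had exactly 2 Ccr2 UMIs and 15 were at both lowest counts. Just outside it were 67 cells with 2 Fcrls UMIs and Ccr2 in range, and 107 cells with 1 Ccr2 UMI and Fcrls in range.

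Double-positive cells made up 23.2%, 13.9% and 20.9% of the macrophages of male mice 1, 2 and 3 (42, 71 and 155 cells), a mean of 19.3% ± 4.82 (SD, n = 3). In the female mice they made up 19.3%, 21.7% and 10.96% (40, 38 and 24 cells), a mean of 17.3% ± 5.65 (SD, n = 3). The ranges of both sexes overlapped. Ccr2 was in range less often in macrophages with Fcrls in range than in the others. In male mice 28.5% of 939 macrophages with at least 3 Fcrls UMIs had Ccr2 in range, against 58.6% of the 493 others, and in female mice 26.6% of 383 against 55.0% of 218. The first percentage was below the second in each of the 6 mice. Since Ccr2 chose the cells, these shares are a description.

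The cells carried the general macrophage genes. Across 7 macrophage markers outside the rule (among them Csf1r, the receptor for the growth factor CSF1, and the adhesion receptor Adgre1), the summed level was 3250, 3316 and 2892 CPM in the double-positive cells of the male mice. It was 3385, 3442 and 3168 CPM in Fcrls-only cells and 2906, 3051 and 2700 CPM in Ccr2-only cells. Without the mouse as a block, edgeR called 0 of the 7 against either class in the male or the female mice. With the mouse as a block in the edgeR model, 1 of the 7 was higher than in Ccr2-only cells of the male mice. In that comparison 2.87% of all genes passed. The same model called 0 of the 7 in the female mice. Markers of T and NK cells, endothelium and monocytes were scarce in the male mice. Of 8 T and NK cell genes, summed at 16.0, 13.4 and 10.0 CPM, Trac, Cd3g and Gzma were at 0 in the male double-positive cells, and 4 endothelial genes summed to at most 1.68 CPM, with Cdh5 and Cldn5 at 0. The 10 listed monocyte genes summed to 29.7, 38.5 and 43.7 CPM in double-positive cells, 37.5, 29.8 and 43.8 in Fcrls-only cells and 54.5, 76.1 and 97.3 in Ccr2-only cells. Hp, the most abundant of them in double-positive cells, was at a mean of 8.84 CPM there.

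Transcripts listed as markers of other cells were found in all classes. The 8 neutrophil genes summed to 812, 870 and 2392 CPM in the double-positive cells of the male mice, led by S100a9. They summed to 886, 950 and 3033 CPM in Fcrls-only cells and to 886, 934 and 920 CPM in Ccr2-only cells, so that male mouse 3 stood high in the first and second of these classes only. The 8 B cell genes, nearly all Ighm, summed to 325, 335 and 307 CPM in double-positive cells, beside means of 339.6 and 329.6 CPM in the other classes. The 8 dendritic cell genes, led by Cd209a, summed to 45.7, 63.7 and 22.6 CPM and the 6 fibroblast genes, led by Dcn, to 32.0, 119 and 107 CPM. In both lists the values of the 3 classes overlapped. The glial list was almost entirely Apoe, which macrophages also express, at a mean of 34266 CPM in double-positive cells. Without the mouse as a block, edgeR called 0 genes of these lists between double-positive cells and either class in the male mice. With the block 1 of 3 glial genes was lower than in Fcrls-only cells. Of 2 dendritic cell genes 1 was lower than in Ccr2-only cells. In these comparisons 4.8% and 2.87% of all genes passed. In the female mice the block called the 1 dendritic cell gene tested lower than in both classes. The 1 glial gene tested was lower than in Fcrls-only cells there, where 4.07% and 0.877% of all genes passed. Cd79b, of the B cell list, was lower than in Fcrls-only cells in the female mice (-1.54 ± 0.37, edgeR adjusted p = 0.0422), and the monocyte list reached 1749 CPM in the double-positive cells of female mouse 1, against 47.6 and 43.5 CPM in the others, almost all of it Retnla. The part of other cells' RNA in the results was not tested.

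The first question was whether genes that accompany Fcrls elsewhere were retained in cells that also carried Ccr2. Cd163, Mrc1, Maf and Igf1 all lay between both single-positive classes in every male mouse. Cd163 (chr6:124304656-124330527), a scavenger receptor for haemoglobin complexes, was at 128, 191 and 187 CPM in the double-positive cells of mice 1, 2 and 3, at 298, 224 and 242 in Fcrls-only cells and at 103, 86.4 and 91.9 in Ccr2-only cells. The 3 groups did not overlap. Relative to Ccr2-only cells it was higher by 0.90 ± 0.17 on the log2 scale (SE, edgeR adjusted p = 0.0178). Relative to Fcrls-only cells the difference was -0.54 ± 0.15 (adjusted p = 0.140), which passed when the mouse was a block in the edgeR model (adjusted p = 0.0145).

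Mrc1 (chr2:14229392-14332057), the mannose receptor, was at 984, 1248 and 1114 CPM in double-positive cells, at 1465, 1626 and 1378 in Fcrls-only cells and at 516, 787 and 655 in Ccr2-only cells, again with no overlap. It was higher than in Ccr2-only cells by 0.76 ± 0.14 (edgeR adjusted p = 0.0145). The difference from Fcrls-only cells was -0.42 ± 0.13 (adjusted p = 0.220, and 0.00425 with the mouse as a block). Maf, a transcription factor of resident macrophages, was at 297, 509 and 359.7 CPM in double-positive cells, at 582, 698 and 490.4 in Fcrls-only cells and at 212, 304 and 224 in Ccr2-only cells. Here the double-positive values overlapped both classes across mice, with mouse 2 high in all 3 classes, although each mouse had its double-positive value in the middle. Neither difference of Maf passed (adjusted p = 0.174 and 0.205), and both did with the mouse as a block (adjusted p = 0.000659 and 0.000652).

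Igf1, a secreted growth factor, showed the clearest separation of the 4. It was at 59.5, 98.9 and 66.8 CPM in double-positive cells, at 181, 193 and 154 in Fcrls-only cells and at 20.1, 32.3 and 21.6 in Ccr2-only cells. It was lower than in Fcrls-only cells by 1.24 ± 0.18 on the log2 scale and higher than in Ccr2-only cells by 1.57 ± 0.24 (SE, n = 3 mice, edgeR adjusted p = 0.00166 and 0.00494).

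The second question was whether genes that accompany Ccr2 were present as well. Tnip3, an inhibitor of NF-κB signalling, was at 54.9, 38.5 and 46.7 CPM in double-positive cells, at 0, 6.81 and 17.7 in Fcrls-only cells and at 218, 203 and 238 in Ccr2-only cells. The 3 ranges were wide apart, and both differences passed, at 1.99 ± 0.36 and -2.25 ± 0.29 (edgeR adjusted p = 0.0115 and 0.000801). Cd52 (chr4:134082448-134095082), a small glycoprotein on the surface of leukocytes, was at 554, 486 and 539 CPM in double-positive cells, at 193, 210.5 and 268 in Fcrls-only cells and at 831, 749.5 and 870.0 in Ccr2-only cells. It too passed on both sides, at 1.21 ± 0.13 and -0.64 ± 0.13 (adjusted p = 0.000225 and 0.0258).

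Lsp1, an actin-binding protein of leukocytes, was at 27.4, 93.8 and 50.2 CPM in double-positive cells, at 23.0, 12.6 and 28.4 in Fcrls-only cells and at 178, 221 and 164 in Ccr2-only cells. Mouse 1 was near its Fcrls-only level and the groups overlapped on that side. Lsp1 was lower than in Ccr2-only cells by 1.71 ± 0.28 on the log2 scale (edgeR adjusted p = 0.00683), and its difference of 1.36 ± 0.32 from Fcrls-only cells did not pass (adjusted p = 0.0651, and 0.00319 with the mouse as a block). Lgals3, which encodes galectin-3, was at 36.6, 43.6 and 42.7 CPM, at 25.9, 14.1 and 28.9 in Fcrls-only cells and at 65.9, 107 and 99.6 in Ccr2-only cells. It was lower than in Ccr2-only cells by 1.18 ± 0.23 (adjusted p = 0.0210). Against Fcrls-only cells the difference was 0.83 ± 0.25 (adjusted p = 0.174, and 0.0304 with the mouse as a block), and the groups did not overlap.

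**Figure D1:**
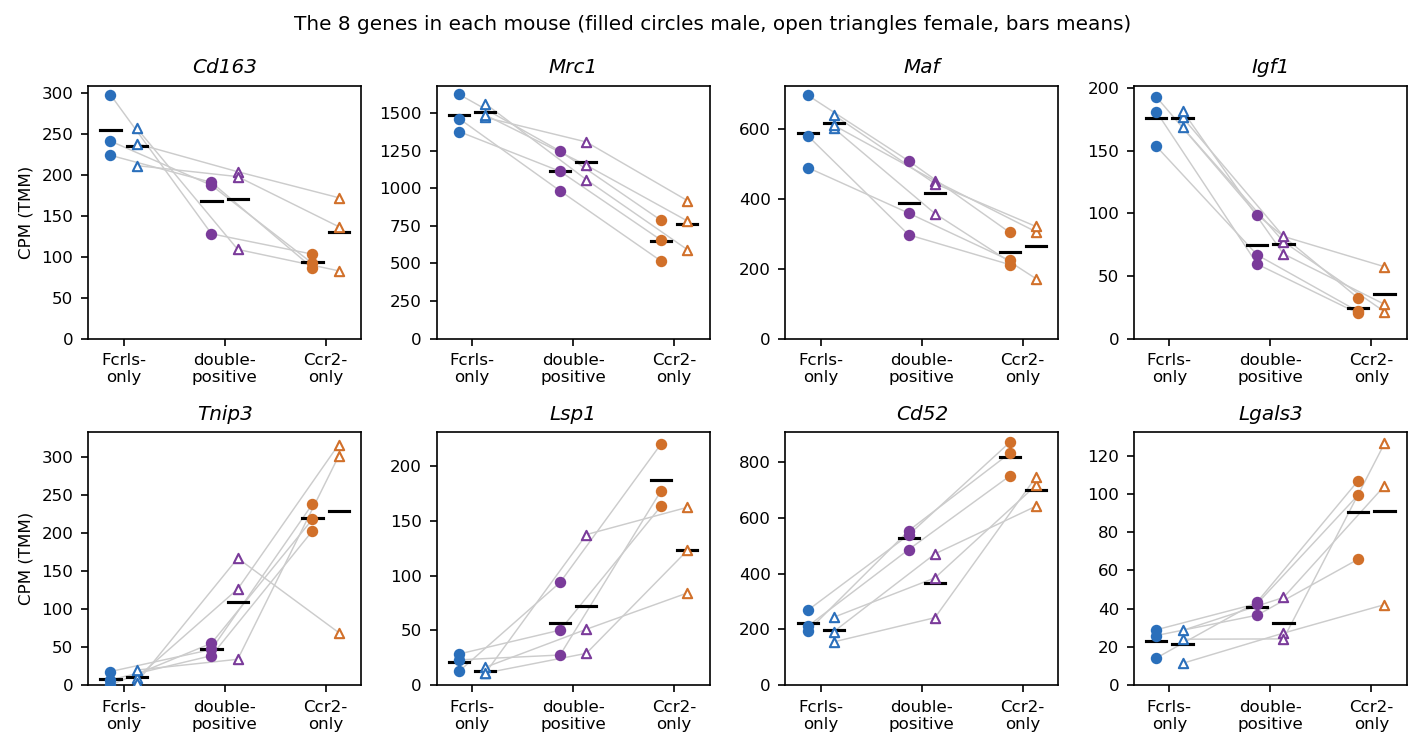
CPM (vertical axes, each from 0) of 8 genes in Fcrls-only, double-positive and Ccr2-only macrophages. Each point is a mouse (filled circles male, open triangles female), grey lines join the classes of a mouse and black bars are means. The double-positive value lies between both others in 24 of 24 gene and mouse pairs of the male mice and in 23 of 24 of the female mice.

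In the male mice the double-positive value was the middle one in 24 of 24 pairs of gene and mouse. Over all 6577 genes tested it was the middle one in 38.8% of such pairs, and 9.34% of genes were in the middle in every mouse. In the female mice, which the rule had not used, it was the middle one in 23 of 24 pairs, against 36.9% over 4103 genes. The exception was Tnip3 in female mouse 2, at 167 CPM in double-positive and 68.9 CPM in Ccr2-only cells. The 8 genes were named together with the rule from earlier results of the male cells, so that only the female mice give values that did not bear on their choice. Macrophages with neither gene in range were not in these sums. Thinned to 5000 UMIs, those of the male mice were also in the middle for each gene by mean share of cells with a UMI. For Igf1 it was 19.8%, against 52.0% of Fcrls-only and 8.34% of Ccr2-only cells. At full depth this held except for Mrc1. In the female mice at full depth Cd163, Mrc1 and Maf were detected less often in them than in either class.

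Igf1, Tnip3, Lsp1 and Cd52, 4 of the 8 genes, passed in the female mice against Fcrls-only cells, where 0.634% of all genes were called higher and 0.707% lower. With the mouse as a block, where 4.07% were called, Maf and Mrc1 passed too (edgeR adjusted p = 0.00841 and 0.0380). Igf1 was at 77.4, 81.6 and 67.6 CPM in female double-positive cells and at 169, 177 and 182 in Fcrls-only cells, a difference of -1.20 ± 0.21 (edgeR adjusted p = 0.00423). Tnip3 was at 126, 167 and 33.8 CPM against 9.53, 3.24 and 19.6 (3.26 ± 0.58, adjusted p = 0.00455), and Lsp1 at 138, 51.0 and 29.0 against 10.9, 16.2 and 10.9 (2.65 ± 0.45, adjusted p = 0.00297). None of these 3 groups overlapped. Cd52 was at 470.3, 384 and 242 CPM against 192, 243 and 155 (0.93 ± 0.19, adjusted p = 0.0189), where female mouse 3 lay within the range of Fcrls-only cells. None of the 8 passed against Ccr2-only cells in the female mice in the unblocked edgeR fit, where Cd52 and Mrc1 came nearest (adjusted p = 0.0597 and 0.0651). With the mouse as a block Cd52, Mrc1, Lgals3 and Maf passed, where 0.877% of all genes did (adjusted p = 0.00143, 0.00240, 0.0239 and 0.0262). The difference between the sexes was itself tested with an interaction term, and of 6379 genes 0 passed in either comparison in edgeR, with 207 and 244 at an unadjusted p under 0.05. DESeq2 was not run for this term.

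Across all genes, far fewer separated the double-positive cells from either class than separated both classes from each other. Against Fcrls-only cells of the male mice 21 genes were higher and 19 lower (0.319% and 0.289% of 6577 tested). Against Ccr2-only cells 18 were higher and 17 lower (0.274% and 0.258%). Between Fcrls-only and Ccr2-only cells 238 were higher and 316 lower (3.62% and 4.8%). These are calls at an adjusted p under 0.05 in edgeR, and the classes were unequal in cell number, which the counts do not allow for. With the mouse as a block the 3 comparisons had 316, 189 and 894 calls, the first and second of these being 4.8% and 2.87% of the genes tested, and without male mouse 1 they had 11, 5 and 216. Without male mouse 2 there were 57, 53 and 366, and without male mouse 3 the comparison with Ccr2-only cells had 16 and that between single-positive classes 358.

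In the female mice 26 genes were higher and 29 lower than in Fcrls-only cells (0.634% and 0.707% of 4103 tested), and 7 were higher and 0 lower than in Ccr2-only cells (0.171% and 0%). For that last count edgeR had 139 genes at an unadjusted p under 0.05, DESeq2 called 2 and the fit with the mouse as a block called 10. Between the single-positive classes 128 were higher and 169 lower (3.12% and 4.12%). The blocked fit called 167 and 36 genes (4.07% and 0.877%) in the first and second comparison, and leaving out a female mouse left 17 to 29 calls against Fcrls-only cells, the lowest without mouse 1. Against Ccr2-only cells 3 calls were left without female mouse 2 or 3. Of the genes called in the male mice, 19 of 20 measured in the female mice were also higher than in Fcrls-only cells and 14 of 14 also lower, the exception being Ch25h. Against Ccr2-only cells 17 of 17 and 16 of 16 had the same direction. In these 4 sets 10, 10, 3 and 0 genes also passed in the female mice.

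Among the genes higher than in Fcrls-only cells were S100a4, Spp1 and Tmsb10. S100a4, a calcium-binding protein of motile cells, was at 22.9, 58.6 and 28.6 CPM in double-positive cells of the male mice, at 4.32, 2.09 and 7.03 in Fcrls-only cells and at 60.2, 115 and 65.6 in Ccr2-only cells (2.76 ± 0.42 against Fcrls-only cells, edgeR adjusted p = 0.00250). Spp1, which encodes osteopontin, was at 105, 85.5 and 148 CPM against 10.1, 30.4 and 44.3 (1.84 ± 0.27, adjusted p = 0.00168), and with 118, 129 and 146 CPM the Ccr2-only cells overlapped the double-positive ones. Tmsb10, an actin-binding thymosin, was at 311, 320.1 and 276 CPM against 131, 151 and 144 (1.07 ± 0.13, adjusted p = 0.000316). The other genes of largest fold that moved alike in all 3 mice were Sirpb1c, Sirpb1b, Bcl2a1a, Ch25h, Emb, Tnip3 and Cd52, at 1.15 to 2.57. Sirpb1b and Sirpb1c are close paralogs, and so are the Bcl2a1 genes, so that the split of reads among their copies is uncertain.

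A few genes of the Fcrls-only cells were nearly missing from the double-positive cells of the male mice. Slc40a1 (chr1:45908068-45926523, minus strand), the iron exporter ferroportin, had 1, 0 and 2 UMIs in the double-positive cells of the male mice, 16, 72 and 72 in Fcrls-only cells and 0, 0 and 0 in Ccr2-only cells. That is at most 2.29 CPM against 23.0, 37.7 and 18.8 CPM (edgeR adjusted p = 0.00128). In the female mice it had 0 UMIs in the double-positive cells of every mouse and 15, 13 and 18 in Fcrls-only cells. Vcam1, an adhesion molecule for leukocytes, had 1, 0 and 7 UMIs in male double-positive cells and 13, 75 and 108 in Fcrls-only cells. It was at 2.29, 0 and 3.52 CPM against 18.7, 39.3 and 28.1 (-3.49 ± 0.46, adjusted p = 0.000851), while Ccr2-only cells had 0, 1.29 and 2.32. For both genes the double-positive cells overlapped the Ccr2-only cells and stood apart from the Fcrls-only cells. Vcam1 was also lower in the female mice (-3.56 ± 0.61, adjusted p = 0.00297). Cyr61, a secreted matrix protein, had 0, 2 and 1 UMIs in male double-positive cells, 28, 32 and 56 in Fcrls-only cells and 0, 0 and 5 in Ccr2-only cells (-4.21 ± 0.76 against Fcrls-only cells, edgeR adjusted p = 0.0115). In the female mice Cyr61 was at 0, 17.0 and 0 CPM in double-positive cells and at 21.8, 11.4 and 5.45 in Fcrls-only cells. These ranges overlapped, with female mouse 2 above and mice 1 and 3 below their Fcrls-only level.

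Other genes were lower than in Fcrls-only cells without being nearly missing. Egfl7, a secreted protein first known from endothelium, was at 20.6, 46.9 and 13.1 CPM in double-positive cells of the male mice, at 114, 193 and 103 in Fcrls-only cells and at 5.73, 20.6 and 7.72 in Ccr2-only cells (-2.60 ± 0.36 against Fcrls-only cells, edgeR adjusted p = 0.00128). Gpx3, a secreted glutathione peroxidase, was at 11.4, 5.03 and 14.6 CPM against 56.2, 41.4 and 47.7 (-1.98 ± 0.30, adjusted p = 0.00275). The chemokine Ccl24 was at 61.8, 251 and 65.8 CPM against 400.4, 553 and 264, with mouse 2 high in both classes (-1.75 ± 0.39, adjusted p = 0.0454). Clec4n, a C-type lectin also called dectin-2, was at 22.9, 53.6 and 47.7 CPM against 121, 186 and 168 (-1.87 ± 0.22, adjusted p = 0.000275). Apoc1, Tnfaip2 and Mgst1 completed the 10 largest folds. Tnfaip2, at 13.7, 10.1 and 11.6 CPM, was below both single-positive classes in every male mouse (25.9, 29.3 and 34.4 CPM, and 17.2, 32.3 and 17.0 CPM), a pattern seen in 1 of 3 female mice, while it was the middle value in the other two.

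Of the 18 genes higher than in Ccr2-only cells, 9 were in the list of Fcrls-side genes. Pf4, a chemokine that resident macrophages express, was at 2507, 2877 and 2458 CPM in double-positive cells of the male mice, at 1402, 1431 and 1210 in Ccr2-only cells and at 3460, 4108 and 3264 in Fcrls-only cells (0.96 ± 0.11 against Ccr2-only cells, edgeR adjusted p = 0.000500). Igfbp4, a binding protein for insulin-like growth factors, was at 480.4, 511 and 485 CPM against 221, 236 and 202 (1.17 ± 0.13, adjusted p = 0.000295). Both also passed in the female mice (0.60 ± 0.09 and 0.82 ± 0.15, adjusted p = 0.00534 and 0.0237). Ccl8, a chemokine, had the largest fold, at 54.9, 299.9 and 164 CPM against 43.0, 9.03 and 35.5 (2.66 ± 0.48, adjusted p = 0.0136). Its lowest double-positive value, in mouse 1, was close to that mouse's Ccr2-only value. Rab34, Ncoa4, Slc15a2, Cbr2, Twf1 and Ltc4s were also among the 10 largest folds, at 0.98 to 1.43.

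Genes lower than in Ccr2-only cells included Tnfsf9, Crip1 and Alcam. Tnfsf9, the ligand of the T cell receptor 4-1BB, was at 64.0, 111 and 78.4 CPM in double-positive cells of the male mice and at 347, 311 and 162 in Ccr2-only cells (-1.64 ± 0.26, edgeR adjusted p = 0.00548). It overlapped the Fcrls-only cells, at 61.9, 78.5 and 48.2. Crip1, a LIM domain protein, was at 1018, 858 and 1030 CPM against 1831, 2103 and 1920 (-1.01 ± 0.15, adjusted p = 0.00362), and it was also higher than in Fcrls-only cells, at 534, 399 and 660.2 (0.86 ± 0.15, adjusted p = 0.00835). Sirpb1c was at 11.4, 16.8 and 13.6 CPM against 48.7, 60.6 and 38.6 (-1.79 ± 0.31, adjusted p = 0.0118). Tnip3, Lsp1, Lgals3, Tppp3, Id3 and Adgre5 were the rest of the 10, at -2.25 to -1.06. Sirpb1c was not tested in the female mice. Of the others edgeR called 0 against Ccr2-only cells there. With the mouse as a block Lgals3 and Id3 passed (edgeR adjusted p = 0.0239 and 0.0416), where 0.877% of all genes did. The fitted differences of those measured had the same direction there, although Tnip3 in female mouse 2 and Crip1 in female mouse 3 (1633 against 1491 CPM) were above their Ccr2-only cells.

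Described by gene list, both sides were carried in part. Of 19 Fcrls-side genes tested in the male mice, 9 were higher than in Ccr2-only cells and 0 lower, and 5 were lower than in Fcrls-only cells and 0 higher, against 0.274% and 0.289% of all genes. Of 20 Ccr2-side genes, 4 were higher than in Fcrls-only cells and 6 lower than in Ccr2-only cells, with 0 calls the other way, against 0.319% and 0.258% of all genes. Leaving out a male mouse left 2 to 7 and 3 to 6 calls on the Fcrls side, the lowest without mouse 1. On the Ccr2 side it left 3 to 10 calls against Fcrls-only cells, the highest without mouse 3, and 1 to 6 against Ccr2-only cells, with 1 without mouse 1 and 3 without mouse 3. With the mouse as a block the Fcrls side had 16 and 17 calls and the Ccr2 side 15 and 16, against Fcrls-only and Ccr2-only cells in that order, where 4.8% and 2.87% of all genes were called. The median log2 differences were -0.55 and 0.89 for the Fcrls side and 0.81 and -0.64 for the Ccr2 side, against Fcrls-only and Ccr2-only cells in that order, while over all genes tested they were 0.0021 and 0.0048. The 0.81 became 0.52 without male mouse 2 and 0.39 with thinned cells. These lists came from earlier results of the same cells and are no independent evidence of their own direction. MHC class II genes, which present peptides to helper T cells, were between the classes in 7 of 7, against 43.2% of all genes, with medians of 0.46 and -0.44 and 0 calls in edgeR. Without male mouse 3 edgeR called 4 of the 7 against Fcrls-only cells, where 45 of 6044 genes passed. Without a filter on low counts it called 5 in each comparison, where 214 and 177 of 15307 genes passed. With the mouse as a block 5 and 6 of the 7 were called, beside the 4.8% and 2.87% of all genes. In the female mice 5 of the 7 were higher than in Fcrls-only cells, against 0.634% of all genes. Among them was Cd74, at 46167, 43307 and 38317 CPM against 33291, 34283 and 30621 (edgeR adjusted p = 0.00625).

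Other lists had few calls in the male mice without the mouse as a block, and most had more with it. Of 11 S100, galectin and annexin genes S100a4 was higher than in Fcrls-only cells, and Lgals3 and S100a10 were lower than in Ccr2-only cells. Of 14 chemokines Ccl24 was lower than in Fcrls-only cells, and Ccl8, Ccl12 and Pf4 were higher than in Ccr2-only cells. With the mouse as a block 7 and 5 of the 11 and 6 and 7 of the 14 passed, where 4.8% and 2.87% of all genes did. Of 10 endocytic and scavenger receptors Cd163, Mrc1 and Stab1 were higher than in Ccr2-only cells and 0 passed against Fcrls-only cells, where all 3 were lower in edgeR with the mouse as a block (Stab1 at adjusted p = 0.000395). That fit called 6 of the 10 in each comparison. Ctsb and Ctsl, of 8 lysosomal cathepsin genes, were lower than in Fcrls-only cells, with Ctsb at 1821, 1612 and 1721 CPM against 2653, 2401 and 2206 (-0.49 ± 0.11, edgeR adjusted p = 0.0374), and 4 and 2 of the 8 passed with the block. Of 17 transcription factors, 15 early activation genes, 9 microglial signature genes, 9 growth and cytokine receptors and 8 interferon genes outside the rule, 0 were called in either comparison by edgeR without the block. With it 2 and 3 transcription factors and 4 and 1 microglial genes passed, and 0 receptors and 0 interferon genes. In these male mice the early activation genes, such as Fos and Junb, had medians of -0.42 against Fcrls-only and -0.02 against Ccr2-only cells, and 10 and 1 of the 15 passed with the mouse as a block, where 4.8% and 2.87% of all genes did, so that the second count is near the background. The female mice differed in some of these counts. In edgeR 0.707% of all genes were lower than in Fcrls-only cells there. Among them were 2 of 15 early activation genes, 1 of 14 transcription factors, 1 of 7 microglial genes and 4 of 14 chemokines. With the block 6, 4, 1 and 8 genes of these lists passed in either direction, where 4.07% of all genes did. Against Ccr2-only cells 0 of the 10 scavenger receptors passed, or 3 with the block, where 0.877% of all genes did.

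Ribosomal protein genes lay between the classes in 79 of 81, against 43.2% of all genes tested, with medians of 0.28 against Fcrls-only and -0.19 against Ccr2-only cells. They summed to 160940, 163150 and 143490 CPM in the double-positive cells of the male mice, above the 133060, 124770 and 129240 CPM of Fcrls-only cells and below the 190240, 169490 and 173840 CPM of Ccr2-only cells. In edgeR 0 of the 81 passed in either comparison, and 43 and 4 did with the mouse as a block, where 4.8% and 2.87% of all genes passed, so that the second count is near the background. Among female mice edgeR called 2 of the 81 higher than in Fcrls-only cells, against 0.634% of all genes. With the mouse as a block 19 of the 81 passed there, where 4.07% of all genes did. In the male mice 71 were lower in Fcrls-only than in Ccr2-only cells, against 4.8% of all genes.

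Of 12 proliferation genes 0 lay between the classes, against 43.2% of all genes. All 12 were above both classes by their fitted values, with medians of 1.02 against Fcrls-only and 1.46 against Ccr2-only cells on the log2 scale. In edgeR 0 passed, and with the mouse as a block 6 and 9 did, where 4.8% and 2.87% of all genes were called. Summed, they were at 1059, 483 and 1395 CPM in double-positive cells, at 546, 361 and 772 in Fcrls-only cells and at 877, 488 and 571 in Ccr2-only cells. Male mice 1 and 3 were high and mouse 2 was not above its Ccr2-only cells. Stmn1, a tubulin-binding protein of dividing cells, was at 158, 33.5 and 296 CPM in double-positive cells, at 49.0, 25.7 and 147 in Fcrls-only cells and at 57.3, 27.1 and 61.8 in Ccr2-only cells. Depth moved with this result. With single-positive cells matched to the double-positive ones on UMIs per cell the medians were 0.38 and 1.64, and without cells over 15000 UMIs, which left 5 of the 12 genes to test, they were 0.78 and 0.73. Without male mouse 3, which left 9 genes, they were 1.08 and 0.63, and without mouse 2 edgeR called 3 and 4 genes. In the female mice 3 of the 12 could be tested, with medians of 0.44 and 0.52.

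To place the double-positive cells with genes that their own mice had not chosen, genes called between Fcrls-only and Ccr2-only cells in the female mice were measured in the male mice. The position of a gene is its mean log2 CPM on a scale where 0 is the Ccr2-only and 1 the Fcrls-only level. For 128 genes of the Fcrls side the median position was 0.466 (quartiles 0.263 and 0.575), and 114 of them (89.1%) lay between both classes. For 169 genes of the Ccr2 side it was 0.429 (quartiles 0.344 and 0.511), with 162 (95.9%) between. Of all genes tested 43.2% lay between. Both medians were a little below the middle of the scale. The position of the gene set's mean was 0.366, 0.490 and 0.443 in male mice 1, 2 and 3 for the Fcrls side and 0.437, 0.352 and 0.571 for the Ccr2 side. Measured in the female mice with genes called in the male mice, the medians were 0.490 (144 of 188 between) and 0.409 (224 of 279 between). Of all genes tested in the female mice 40.97% lay between.

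**Figure D2:**
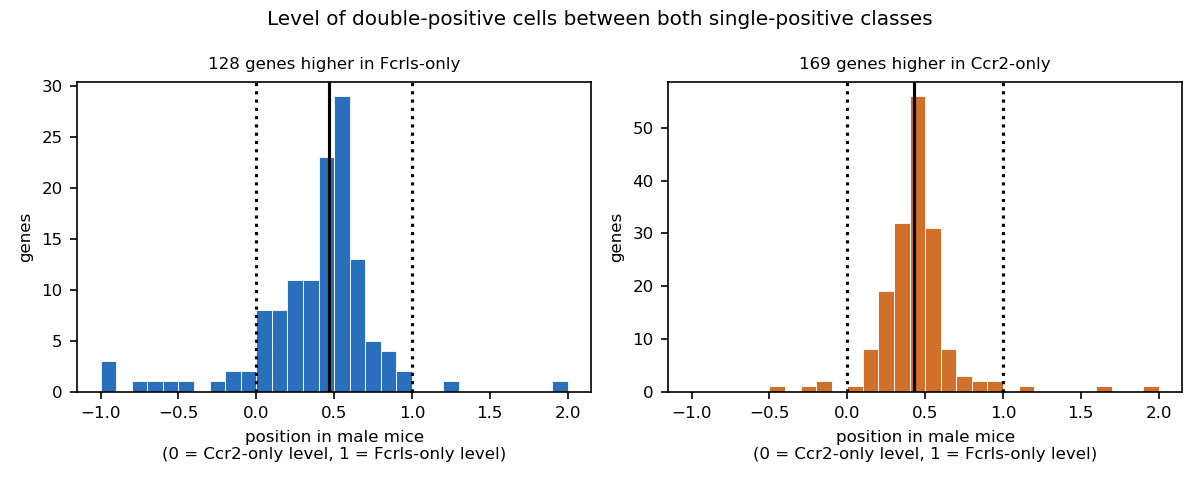
Number of genes (vertical axis) by position in the male mice (horizontal axis, 0 the Ccr2-only and 1 the Fcrls-only level, dotted lines), for 128 Fcrls-side and 169 Ccr2-side genes called in the female mice. Solid lines are the medians of 0.466 and 0.429, and genes beyond the axis are drawn in its end bars.

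Single genes departed from the middle. On the Fcrls side list Cbr2, a carbonyl reductase, had the highest position, at 0.730, with 382, 345 and 519 CPM in double-positive cells, 661, 463 and 585 in Fcrls-only cells and 158, 146 and 218 in Ccr2-only cells. Slc40a1 had the lowest, at 0.166, but with 0 UMIs in all Ccr2-only cells its position is set by the prior count. On the Ccr2 side list Tnfsf9, at 0.802, was nearest to the Fcrls-only level, and Spp1, at 0.102, nearest to the Ccr2-only level. By their fitted values the genes of 1 side thus had unequal positions in the male mice. In the female mice Cbr2 was at 0.519 and Spp1 at 0.493, both near the middle, and Tnfsf9 was at 0.854. Slc40a1 was not tested there.

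Since summed cells do not show how single cells vary, the balance of both lists was also taken in each cell. It is the log2 ratio of Fcrls-side to Ccr2-side CPM, with 100 CPM added to each and with the rule's genes and MHC class II left out. Its median was 2.96 in double-positive cells of the male mice, 4.17 in Fcrls-only cells and 1.40 in Ccr2-only cells. The SD within a mouse was 1.34, 1.18 and 1.70 in these classes. Of the double-positive cells 71.4% ± 4.51 (SD, n = 3 mice) lay between both medians, 13.9% at or above the Fcrls-only median and 14.7% at or below the Ccr2-only one. Of the macrophages with neither gene in range 66.4% ± 10.6 lay between as well. After thinning all cells to 5000 UMIs the shares were 70.7% of double-positive cells and 69.7% of cells with neither gene in range. In the female mice they were 70.6% and 47.2% at full depth. A place between the medians was thus not particular to double-positive cells in the male mice. The fullest step of the histogram of double-positive cells, from 2.5 to 3, held 19.0% of them.

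**Figure D3:**
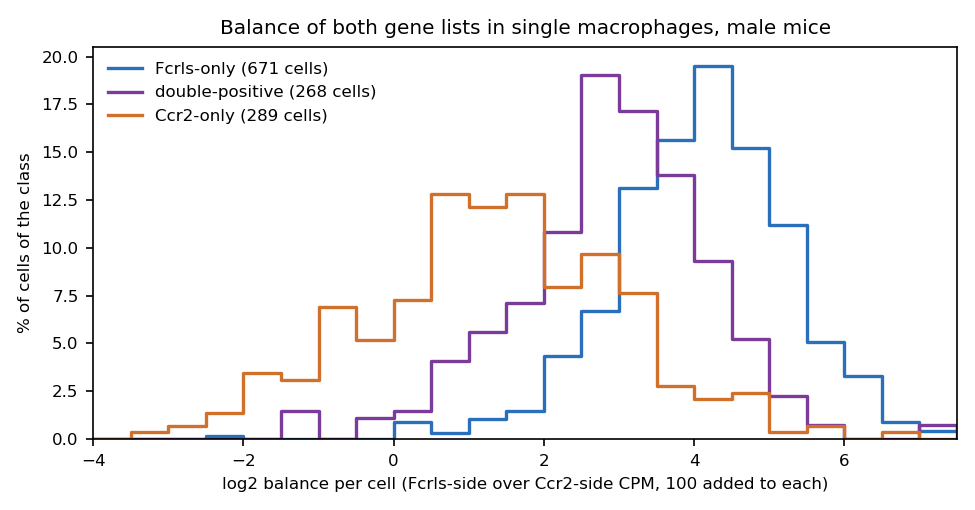
Share of cells of each class (vertical axis, percent) by the log2 balance of Fcrls-side over Ccr2-side genes (horizontal axis, steps of a histogram), male mice. The double-positive cells peak between both other classes, with medians of 1.40, 2.96 and 4.17 for Ccr2-only, double-positive and Fcrls-only cells, and the 3 distributions overlap.

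Genes of both sides were found in the same cells. In the male mice Cd163 and Cd52 were detected together in 54.6% ± 9.79 of double-positive cells (SD, n = 3 mice), in 48.2% ± 6.39 of Fcrls-only, in 35.7% ± 10.0 of Ccr2-only cells and in 39.0% ± 15.7 of cells with neither gene in range. Thinned to 5000 UMIs, the shares were 36.2%, 29.9%, 21.0% and 23.8%. The ranges of the first 3 classes overlapped in the female mice, at 41.2% ± 10.2, 37.6% ± 3.76 and 38.5% ± 4.28. Mrc1 and Cd52 were detected together in 88.3% ± 4.92 of male double-positive cells, 65.5% ± 3.27 of Fcrls-only cells and 88.5% ± 3.26 of Ccr2-only cells, so that this pair did not set the double-positive cells apart from the latter. Joint detection also occurred in cells of a single-positive class. Free RNA in droplets was not removed, and its part in these shares was not tested.

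Clustering without the rule's genes spread the double-positive cells over the clusters of both classes. The cluster led by Ccl24, Egfl7 and Igf1 held 33.2% ± 15.2 of them (SD, n = 3 mice), 75.9% of Fcrls-only and 10.3% of Ccr2-only cells. The cluster led by Tnfsf9 and Tnip3 held 54.2% ± 8.85 of them, 16.2% of Fcrls-only and 81.6% of Ccr2-only cells. Macrophages with neither gene in range were also spread over both, with 37.1% ± 9.49 and 57.2% ± 7.74 in these clusters. Male mouse 2 differed from the others, with 50.7% of its double-positive cells in the former cluster against 23.8% and 25.2%. In the clusters led by Top2a and Mcm6, whose median UMIs were 17777 and 15613, lay 2.51% ± 2.58 and 9.45% ± 8.01 of double-positive cells, against 1.11% and 4.80% of Fcrls-only and 1.01% and 4.36% of Ccr2-only cells. The double-positive shares differed by mouse. They were 2.38% and 9.52% in male mouse 1, 0% and 1.41% in mouse 2 and 5.16% and 17.4% in mouse 3. No cluster consisted of double-positive cells. Of the 20 nearest neighbours of a double-positive cell 24.5% were double-positive, 42.5% Fcrls-only and 21.8% Ccr2-only, against shares of 18.7%, 46.9% and 20.2% among all macrophages. Fcrls-only cells had 68.6% neighbours of their own class and 5.63% Ccr2-only neighbours, and Ccr2-only cells had 44.6% of their own and 16.3% Fcrls-only neighbours.

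Levels of both sides differed with the count of the second gene, from its lowest to its highest group in each of the 3 male mice, though not in even steps in single mice. In male macrophages with at least 3 Fcrls UMIs, Cd163, Mrc1, Maf and Igf1 summed to 2661 ± 185 CPM (SD, n = 3 mice, without TMM factors) at 0 Ccr2 UMIs, 2209 ± 276 at 1, 2030.5 ± 302.5 at 2, 1672 ± 211 at 3 to 4 and 1678 ± 311 at 5 or more. Tnip3, Lsp1, Cd52 and Lgals3 summed to 269.8 ± 52.0, 361 ± 168, 545 ± 133, 661 ± 138 and 764 ± 123 CPM in the same cells. From 0 to 1 UMI the second sum was higher in mice 2 and 3 and lower in mouse 1 (253 and 187 CPM). In macrophages with at least 2 Ccr2 UMIs, the first 4 genes summed to 805 ± 59.1, 1094 ± 316, 1524 ± 149, 1646 ± 429 and 2176 ± 691 CPM at 0, 1 to 2, 3 to 4, 5 to 8 and 9 or more Fcrls UMIs. The other 4 summed to 1493 ± 263, 1097 ± 139, 747 ± 7.49, 699.9 ± 27.2 and 495 ± 297 CPM. Single mice departed from the order of the means, as mouse 1 did in the former sum (1638, 1162 and 1597 CPM in the last 3 groups) and mouse 3 in the latter (738, 673 and 746 CPM). Depth moved with both series: median UMIs per cell were 8865.5 at 0 and 10551 at 5 or more Ccr2 UMIs, and 8083 at 0 and 12094 at 9 or more Fcrls UMIs, and the part of depth was not tested.

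**Figure D4:**
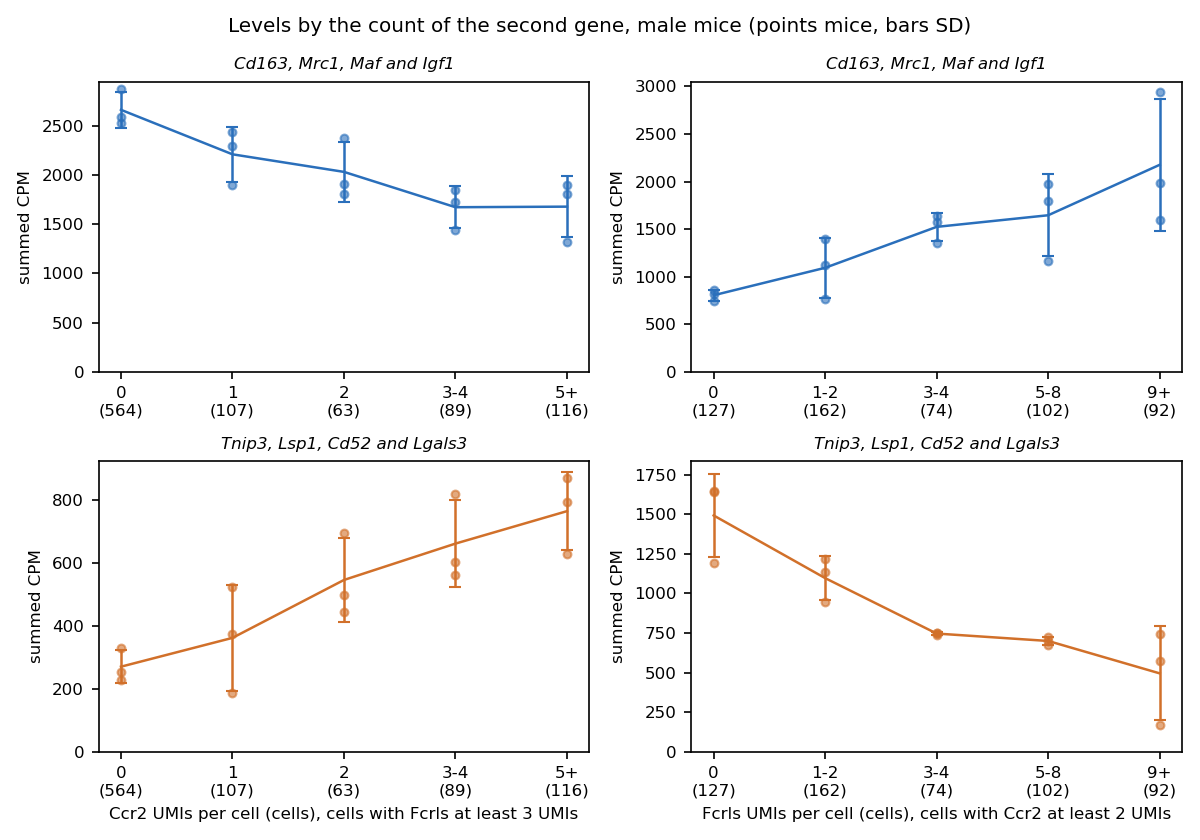
Summed CPM (vertical axes, from 0) of 4 Fcrls-side genes (upper row) and 4 Ccr2-side genes (lower row) by the UMIs of Ccr2 in cells with Fcrls (left) and of Fcrls in cells with Ccr2 (right), with the number of cells in brackets. Points are the 3 male mice, lines their means and bars the SD. With Ccr2 UMIs the Fcrls-side sum runs from 2661 to 1678 CPM and the Ccr2-side sum from 269.8 to 764 CPM.

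Depth bore on who met the rule. Double-positive cells of the male mice had a median of 9944 UMIs. It was 8861 in Fcrls-only cells, 8341 in Ccr2-only cells and 6941 in cells with neither gene in range. In 4 equal groups of 358 macrophages from the shallowest to the deepest, 7.26%, 16.5%, 19.0% and 32.1% were double-positive. When cells were thinned to 5000 UMIs before the rule was applied, the mean share over mice was 7.73%, and at raised thresholds of 5 Fcrls and 3 Ccr2 UMIs it was 10.5%. The genes called kept their direction in the depth settings wherever they had a value. With single-positive cells matched on UMIs, 38 of the 40 genes called against Fcrls-only cells could be measured and had the same sign, and 14 of them were called again. Of the 35 called against Ccr2-only cells all had the same sign and 15 were called again. With thinned cells 35 of the 40 and 33 of the 35 had a value, and 7 and 8 were called again.

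Doublets, droplets with more than 1 cell, can give a barcode the transcripts of both classes. In the larger matrix 269 barcodes that passed the filters had 2 hashtags and are thus known doublets of different mice. Of their 142 macrophages 39 met the rule, which is 27.5% (95% Clopper-Pearson interval 20.3 to 35.6), with a median of 15095 UMIs. Among macrophages with 1 hashtag 18.7% (16.7 to 20.8) met it in the male and 17.0% (14.1 to 20.2) in the female mice. Doublets within a mouse carry 1 hashtag and cannot be seen in this way. From the mice's shares of cells, 70.6 of them were expected among the male cells, and with the 14.5% of all known doublets that met the rule, 10.2 (7.43 to 13.6) of the 268 cells, or 3.82%, would be doublets, and 1.37% of the 102 female ones. These intervals cover counting error only.

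**Figure D5:**
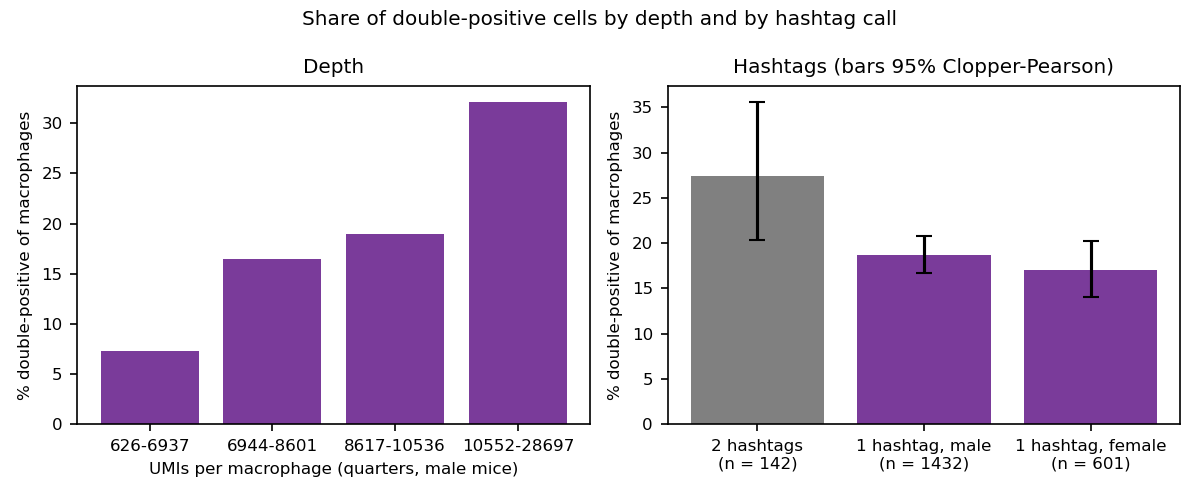
Share of double-positive cells among macrophages (vertical axes, percent, from 0) in 4 equal groups of macrophages by UMIs per cell in the male mice (left) and by hashtag call (right, bars 95% Clopper-Pearson intervals). The share is 7.26% in the shallowest and 32.1% in the deepest group, and 27.5% in barcodes with 2 hashtags against 18.7% and 17.0% in those with 1.

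Scrublet, which scores barcodes against simulated doublets, marked 37 of the 269 known doublets and 9 of the 3741 barcodes with 1 hashtag at its own threshold, 1 of them double-positive, so that it found few of the known ones. Among the top 6% of scores, a limit set after the data were seen, were 66 of the 269, and 14.9% of male double-positive cells against 6.36% of the other male macrophages. Without these cells 35 of the 40 and 31 of the 35 calls were made again. Without cells over 15000 UMIs, where the known double-positive doublets had their median, 62 and 55 genes were called, and 38 of the 40 and 35 of the 35 were among them.

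Cells that should lack Fcrls were used to measure UMIs from free RNA. Whether those rich in S100a8 and S100a9 carried Ccr2 of their own was not tested. Of 154 B cells of the male mice (Cd79a and Cd79b at least 2 UMIs each) 1 (0.649%, interval 0.0164 to 3.56) had at least 3 Fcrls UMIs and 0 had at least 2 Ccr2 UMIs, which allows a share of up to 1.95% (3 counts of the total, not a Clopper-Pearson bound). Of 579 cells rich in S100a8 and S100a9 5 (0.864%) reached the Fcrls threshold, 14 (2.42%) the Ccr2 threshold and 2 both. Their median depths of 3446.5 and 6492 UMIs were below the 9944 of double-positive cells, and free RNA in macrophages at their own depth was not measured. Thinned to 2000 UMIs, 3.45% and 2.39% of them had any Fcrls UMI.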

How the data were processed

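CD45+ cells of naive DRG were profiled by the authors in 1 lane of the 10x 3′ assay. The deposited values are raw UMI counts: per the file headers Cell Ranger 3.1.0 made the larger matrix, the build is mm10 per the labels, and the smaller matrix holds cells that the authors kept at more than 200 but fewer than 5000 detected genes, with mitochondrial reads below 5%, then demultiplexed with HTODemux. Here HTODemux (Seurat 5.3.0, R 4.3.3, positive quantile 0.99) was run on all 4395 barcodes and the filters applied afterwards, which gave exactly the 2668 deposited cells and 1073 female cells. Barcodes with 2 hashtags were left out as doublets.

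Counts were summed per mouse and class (375055 to 3609092 UMIs in the male mice) and tested with edgeR 4.0.16 (quasi-likelihood, TMM, filterByExpr, Benjamini-Hochberg, threshold 0.05) with all 3 classes in 1 fit. The 10 genes of the rule stayed in the library sizes and were not tested. Without the mouse as a block, p-values measure the spread between mice within a class and leave out that mice are shared. With the block they measure the spread over mice of the differences between classes. DESeq2 1.42.0, the mouse as a block, each mouse left out, other thresholds, depth and doublet settings were alternatives. The classes compared come from the same mice, which pairs them. Same-mouse deviations correlated at 0.0480, 0.316 and 0.356 (double-positive with Fcrls-only) and 0.0725, 0.189 and 0.124 (with Ccr2-only) in the male mice, across genes, which are not independent. Positions used log2 CPM with a prior count of 2. Clusters used 2000 variable features, 15 components and resolution 0.5. Python 3.11.15, scipy 1.17.1 and scanpy 1.11.5 (Scrublet, expected rate 0.06) were used. Gene positions are those of GENCODE M21 (GRCm38). The tests were run on simulated data first.

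Named genes were the 8 genes given with the rule, the 10 of largest fold per comparison and direction that changed alike in all 3 male mice, list members past the threshold, and the extreme positions of each list. The members, lists and named genes were chosen with earlier results of these data known.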

Additional observations from a re-analysis of the deposited data

Results flagged for a closer look

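Among barcodes outside the comparisons, those with 2 hashtags, 39 met the rule for double-positive macrophages. They are known doublets of different mice, and their median of 15095 UMIs was above the 9944 UMIs of double-positive cells with 1 hashtag in the male mice.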

How the results depend on the processing

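The number of calls moved with the setting, and their direction did not: wherever they could be measured, the 40 and 35 genes called in the male mice kept their sign in every alternative run. For the male mice, double-positive against Fcrls-only cells, the 40 calls became 70 with DESeq2, of which 13 were among the 40, 214 without a filter on low counts, 316 with the mouse as a replicate block, 14 with cells matched on UMIs, 11 with thinned cells, 62 without cells over 15000 UMIs, and 11 to 57 when a mouse was left out. Against Ccr2-only cells the 35 became 177 without a filter, 189 with the block, 81 with strict single-positive classes, 15 matched, 8 thinned, 55 without cells over 15000 UMIs and 5 to 53 with a mouse left out. Between the single-positive classes the 554 became 367 with DESeq2, 894 with the block, 319 matched, 248 thinned and 216 to 366 with a mouse left out. For the female mice the 55 became 85 with DESeq2 (33 shared), 138 without a filter, 167 with the block and 17 to 29 with a mouse left out, and the 7 became 15, 49, 36 and 3 to 7. The Fcrls-side median position of 0.466 became 0.531 with strict classes, 0.338 at raised thresholds, 0.541 without cells over 15000 UMIs and 0.554 with the fixed list. The share of 19.3% became 10.5% at raised thresholds and 7.73% thinned. Leaving out or thinning cells reduces the cells or UMIs that are summed. Genes tested numbered 8397, 7280 and 6044 without male mouse 1, 2 and 3, against 6577 with all 3 mice. The cause of the changes was not tested. Of 791 values of named genes under alternatives, 605 stayed on their side of the threshold, 163 lost and 23 gained it, and 0 changed direction. The female comparison had 24 to 40 double-positive cells per mouse.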
